A study of Mus musculus with 6 samples.

Results

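Keratins, desmosomal proteins and precursors of the cornified envelope, the proteins that build and seal stratified epithelium, were followed in medullary thymic epithelial cells (the epithelium of the thymic medulla) with and without Aire. They comprised 92 probe sets of 69 genes, among 12422 probe sets of a 1-colour oligonucleotide array that name 8251 genes singly. A probe set belonged to them if its single annotated gene was a numbered keratin, a keratin-associated protein, a small proline-rich protein (Sprr), a desmoglein, a desmocollin, a stefin A or a transglutaminase, or was 1 of a few named envelope and desmosome genes. The rule applies to gene names and uses no signal. No probe set carried a stefin A gene or envoplakin as its single gene. Another 4 probe sets, which named several genes, were left out.

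The Aire-deficient cells came from B6/129 F2 mice in which the 2 copies of aire, the autoimmune regulator gene, had been disrupted, and the cells they were set against from wild-type B6/129 F2 mice. All animals were aged 3 to 5 weeks. Each genotype had 3 arrays, and each array measured the pooled thymi of 5 mice of both sexes, so that no value belongs to a single animal. Cells of both genotypes were sorted as negative for the blood cell marker CD45, positive for the epithelial antibody G8.8, intermediate for CDR1 and high for the costimulatory molecule B7.1, and their total RNA was amplified in 2 rounds. Which part of aire is missing is not in the labels, and its probe set gave 201.6, 296.6 and 211.4 on the Aire-deficient arrays and 59.9, 96.4 and 138.1 on the wild-type arrays (adjusted p = 0.0918 in limma, 0.0191 with the block described next), so it does not check the genotype labels. The arrays were numbered 1 to 3 within each genotype, and the labels do not say what a number shared between genotypes means.

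Keratins form filaments from pairs of 1 type I and 1 type II protein, and each kind of epithelium uses its own pairs. Krt8 and Krt18 serve simple epithelium, Krt5 and Krt14 the basal layer of stratified epithelium, Krt4 and Krt13 the upper layers of mucosa, and Krt1 and Krt10 those of epidermis. Desmosomes anchor the filaments at cell contacts. In the outermost layers, transglutaminases cross-link small proline-rich proteins, loricrin, involucrin and others into the cornified envelope. In the thymic medulla such transcripts are known both from the epithelium's own keratins and from structures that resemble keratinising skin, and Aire is known for its role in the transcription of genes of peripheral tissues there.

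Signals below are quantile-normalized intensities in arbitrary units, which do not compare one probe set with another. A signal under 5.53, the pooled 40th percentile, is called dim here, and probe sets dim on more than 3 of the 6 arrays were not tested. Of the 92 probe sets 56 (49 genes) were tested, and 22 lay under the limit on all 6 arrays. The test was limma over all 7768 probe sets above the limit, with Benjamini-Hochberg adjustment over all of them and a threshold of 0.05. Differences are log2 signal in Aire-deficient minus wild-type cells, with SE. Arrays of the same number deviated together, so results of the fit with the replicate number as a block are given where they change a call.

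The 3'/5' signal ratio of beta-actin, a measure of RNA quality or amplification, was 4.38 to 13.4 on the Aire-deficient arrays and 5.42, 95.8 and 13.8 on the wild-type arrays, so wild-type array 2 differed from the rest. The antigens of the sort were themselves measured: Epcam, which G8.8 binds, gave 102, 79.8 and 86.9 on the Aire-deficient arrays and 234.0, 251.0 and 130.5 on the wild-type arrays (adjusted p = 0.118 in limma, 0.0315 with the block), and Cd80, which encodes B7.1, gave 8.8, 13.1 and 11.8 against 3.52, 4.92 and 4.25 on 1 of its probe sets (adjusted p = 0.152). The second Cd80 probe set overlapped, with 12.5, 15.2 and 16.1 on the Aire-deficient arrays and 5.78, 15.8 and 7.32 on the wild-type arrays (adjusted p = 0.482 in limma). On 1 probe set Ptprc (CD45) gave 7.93, 7.83 and 10.3 on the Aire-deficient arrays and 5.15, 7.22 and 5.33 on the wild-type arrays. The groups did not overlap, near the dim limit, and the difference did not pass (adjusted p = 0.586 in limma). The other Ptprc probe sets were dim on all 6 arrays. Carry-over of blood cells was not tested. In bulk samples fewer cells of a kind and less RNA per cell cannot be told apart.

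Most tested members gave lower signals in the Aire-deficient cells (47 of 56 differences lay below 0), and few passed the test. Of the 56 tested probe sets 2 passed the test, those of Sprr1b and Krt4, both lower, against 1.38% of all tested probe sets that were called lower. None was called higher in limma, against 0.348% of all (at an unadjusted p under 0.05, 16 were lower, against 7.81% of all, and 2 higher, against 6.44%). With the replicate block 8 fell, against 3.37% of all, and none rose, against 1.93% of all. The 6 added were Sprr2f, Sprr1a, Krt10, Krt6a, Krt19 and Krt84. Without both arrays numbered 2, an alternative chosen after seeing the data, the blocked fit called Krt10, Krt16, Krt19, Krt4, Sprr1b and Sprr2f lower and Krt35 higher. The share of all probe sets called in that fit is not given here, so these calls are not set against it. Leaving out 1 array at a time in the unblocked fit, Sprr1b alone was called without wild-type array 1 or wild-type array 2. Neither gene was called without Aire-deficient array 1, 2 or 3 or without wild-type array 3, with adjusted p in limma of 0.0533 to 0.0814 for Sprr1b and 0.109 to 0.174 for Krt4.

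Most members lay below 0 whether or not they were called. Among the 41 probe sets above the dim limit on all 6 arrays, so that neither genotype alone let them in, 32 (78%) had a difference below 0, against 46.6% of 5351 such probe sets on the array. The groups did not overlap, with the Aire-deficient arrays lower, for 11 of the 41, against 9.1% of all, and for 1 of the 41 with the Aire-deficient arrays higher, against 10.8% of all. The median difference was -0.33 for the 41 and 0.04 for all such probe sets. Over all 92 members, dim ones included, the median was -0.25, against 0 over 12422 probe sets. For the 56 tested members it was -0.60, against 0.05 over the 7768 tested, and 15 of the 56 did not overlap downwards, against 10.1% of all, and 1 upwards, against 10.4%. The members' transcripts share cells and arrays, so these shares are descriptions and carry no test.

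**Figure D1:**
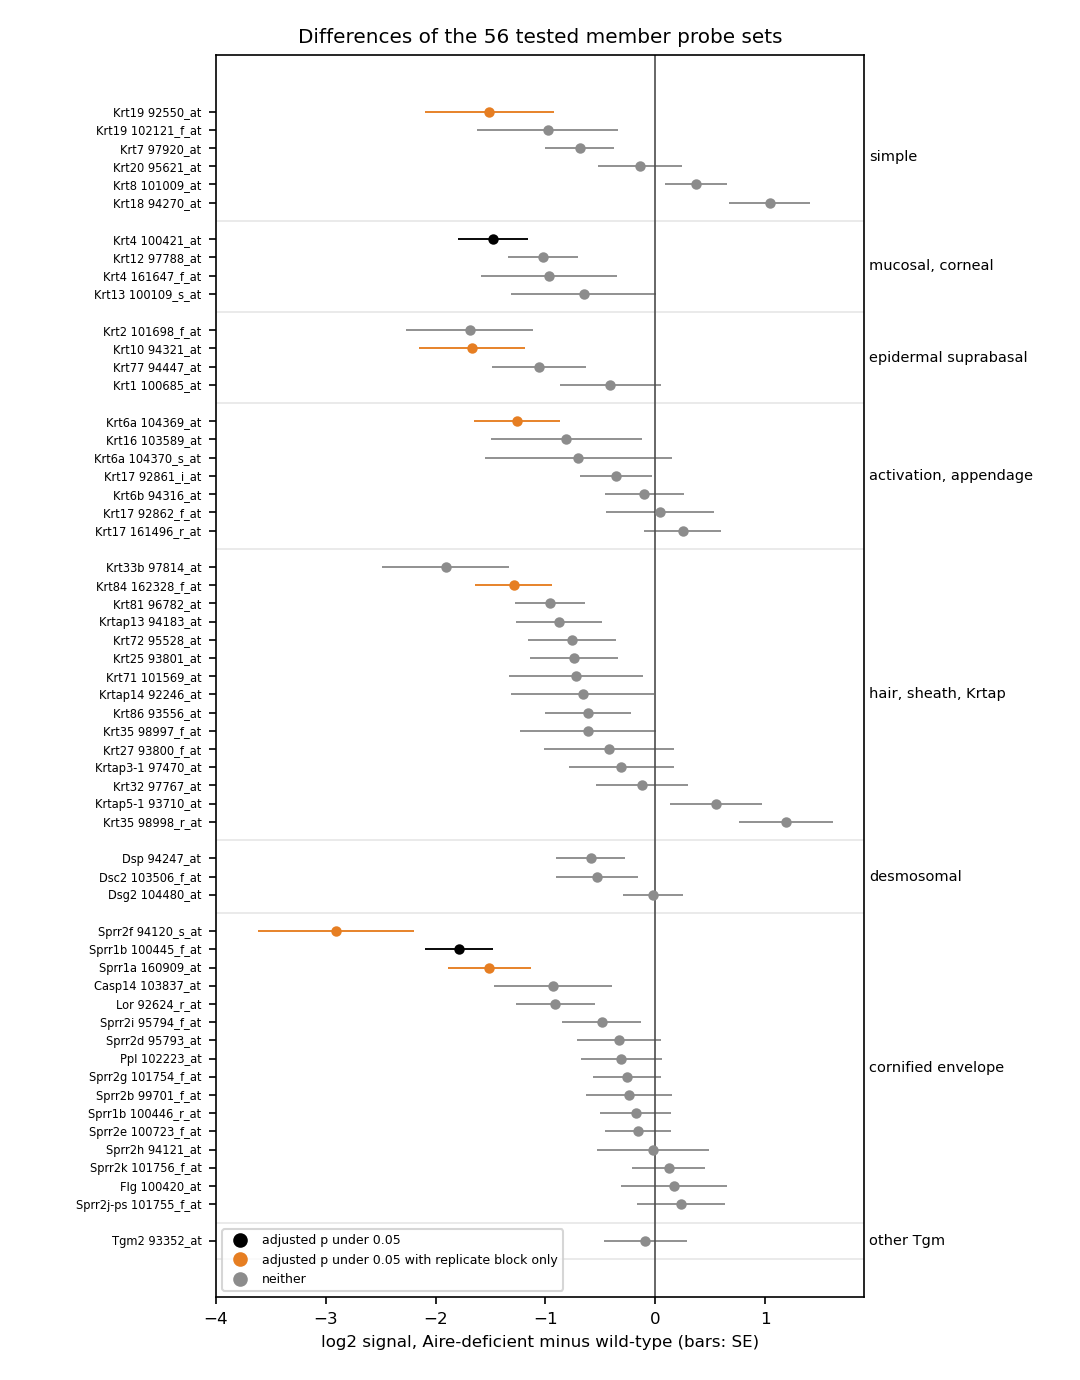
Difference in log2 signal (Aire-deficient minus wild-type, x axis) for the 56 tested probe sets by class, with bars for the SE and colours for the calls. Sprr1b and Krt4 pass the test in limma, 6 more pass with the replicate block only, and 47 of the 56 points lie left of 0.

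Small proline-rich proteins are cross-linked into the envelope by transglutaminases, and 1 of the 2 calls in limma was among them. The Sprr1b probe set 100445_f_at gave 62.6, 73.97 and 63.3 on the Aire-deficient arrays and 204.7, 326.0 and 180.3 on the wild-type arrays. There was no overlap, and the 3 Aire-deficient arrays lay close together. The geometric means were 66.4 (SD 0.13 on the log2 scale, n = 3) and 229.2 (SD 0.45, n = 3), and the signal fell by 1.79 ± 0.31 (SE) on the log2 scale, or 3.45-fold (adjusted p = 0.0173 in limma, 0.00262 with the block).

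A second Sprr1b probe set, 100446_r_at, did not pass. It gave 81.2, 95.7 and 91.7 on the Aire-deficient arrays and 87.4, 146.9 and 80.7 on the wild-type arrays, which overlapped (difference -0.18 ± 0.32, adjusted p = 0.849 in limma). The suffix f marks probe sets whose probes can bind several members of a family, and the suffix r those for which some design rules were relaxed. The fall of Sprr1b therefore rests on 1 of 2 probe sets, which may bind relatives of Sprr1b as well.

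Sprr1a, a close relative of Sprr1b, differed in the same direction on a probe set without such a suffix. Its signals were 53.5, 20.7 and 39.3 on the Aire-deficient arrays and 84.9, 108.3 and 109.1 on the wild-type arrays. All Aire-deficient arrays lay below all wild-type arrays. The difference was -1.51 ± 0.38, which missed the threshold in limma (adjusted p = 0.0788) and passed with the block (0.0223).

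Sprr2f had the largest difference among the tested Sprr2 probe sets. Its probe set 94120_s_at, whose suffix s marks probes shared by more than 1 transcript, gave 11.6, 10.9 and 2.08 on the Aire-deficient arrays and 37.1, 122.7 and 24.8 on the wild-type arrays. All Aire-deficient arrays lay below all wild-type ones, with wild-type array 2 far above the other arrays. The difference was -2.91 ± 0.71 (adjusted p = 0.0738 in limma, 0.00186 with the block), and the adjusted p was 0.044 in the blocked fit without both arrays numbered 2.

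The other Sprr2 genes overlapped throughout. Of Sprr2b, d, e, g, h, i, j-ps and k, 8 tested probe sets in all, the differences ran from -0.49 to 0.23 with a median of -0.20, and adjusted p in limma from 0.58 to 0.989. Sprr2e, whose gene lies next to Sprr2f, gave 105.3, 73.2 and 69.8 on the Aire-deficient arrays against 98.1, 77.0 and 99.4 on the wild-type arrays. Of these 8 probe sets 6 carry the suffix f, so their signals may be shared between family members. The Sprr3 probe set passed the dim limit on wild-type array 3 alone and Sprr2c-ps likewise, and neither was tested.

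**Figure D2:**
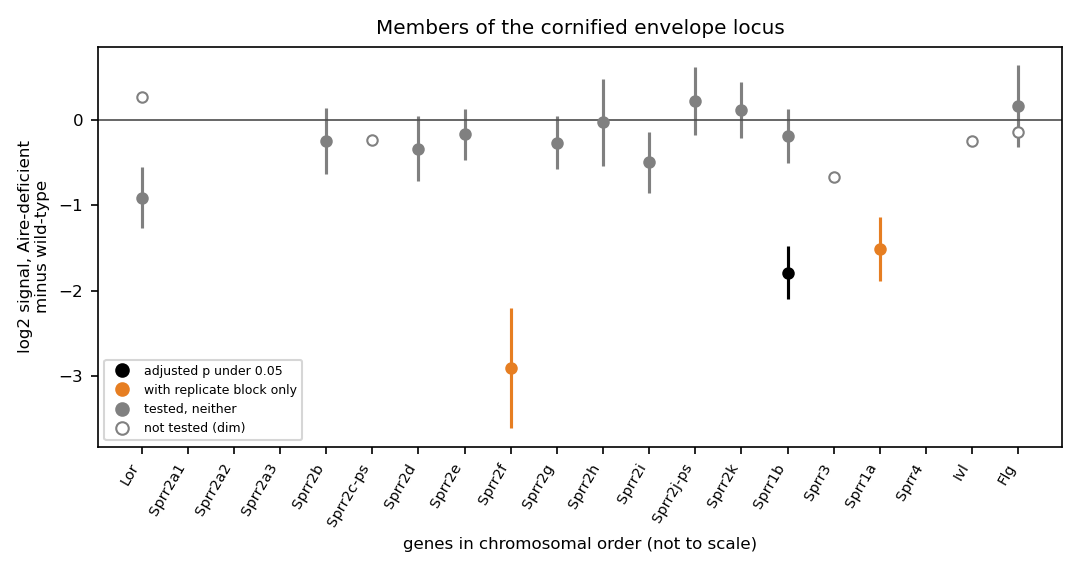
Differences in log2 signal (Aire-deficient minus wild-type, y axis, bars for SE) of the members on chromosome 3, with genes in their order along the chromosome on the x axis. Sprr2f at -2.91, Sprr1b at -1.79 and Sprr1a at -1.51 lie below Sprr2 neighbours between -0.49 and 0.23, and Sprr2a1 to Sprr2a3 and Sprr4 have no member probe set.

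The sequences around the starts of 4 of these genes are shown because Sprr2f and Sprr2e, close in sequence and on the chromosome, had unlike differences, and Sprr1a and Sprr1b like ones. They are taken from RefSeq for GRCm38.p6 and run from 250 bases before to 50 bases after the start, and 46 of the 69 genes had an entry. Capitals mark TGANTCA, the box CACCC and the Ets core CCGGAA, each searched on both strands, and TATAAA on the sense strand. TGANTCA, with any base at N, is wider than the AP-1 element, which has C or G there. The match in Sprr1b, TGAATCA, is of the wider form only. CACCC and TGANTCA overlap once, in Sprr1a.
Sprr1b (chr3:92438730-92439029, minus strand): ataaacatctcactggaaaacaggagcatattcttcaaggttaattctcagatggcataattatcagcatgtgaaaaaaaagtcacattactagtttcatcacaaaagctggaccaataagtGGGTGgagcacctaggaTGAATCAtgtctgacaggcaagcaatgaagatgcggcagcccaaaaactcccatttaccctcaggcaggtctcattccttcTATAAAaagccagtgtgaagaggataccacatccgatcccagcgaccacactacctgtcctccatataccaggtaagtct
Sprr1a (chr3:92485832-92486131, minus strand): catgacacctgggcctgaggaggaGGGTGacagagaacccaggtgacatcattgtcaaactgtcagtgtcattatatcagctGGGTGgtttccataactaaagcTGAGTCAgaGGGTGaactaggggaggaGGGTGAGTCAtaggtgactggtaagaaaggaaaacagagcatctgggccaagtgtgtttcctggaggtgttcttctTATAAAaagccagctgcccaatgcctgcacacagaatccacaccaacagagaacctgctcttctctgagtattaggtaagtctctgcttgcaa
Sprr2f (chr3:92364937-92365236, plus strand): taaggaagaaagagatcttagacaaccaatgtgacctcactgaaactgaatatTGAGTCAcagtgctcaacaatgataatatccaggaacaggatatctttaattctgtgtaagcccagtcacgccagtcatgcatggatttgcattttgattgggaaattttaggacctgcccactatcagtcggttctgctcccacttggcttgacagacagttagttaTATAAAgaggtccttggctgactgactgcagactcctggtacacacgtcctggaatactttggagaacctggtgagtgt
Sprr2e (chr3:92351893-92352192, plus strand): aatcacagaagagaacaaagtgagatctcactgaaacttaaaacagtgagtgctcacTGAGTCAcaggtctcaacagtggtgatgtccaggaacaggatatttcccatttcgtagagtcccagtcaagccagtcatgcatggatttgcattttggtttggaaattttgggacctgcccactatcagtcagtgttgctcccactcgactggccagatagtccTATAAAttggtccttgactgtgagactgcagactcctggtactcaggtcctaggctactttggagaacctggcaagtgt

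The upstream regions of Sprr2f and Sprr2e were 74.8% identical over 313 aligned columns, and each held 1 TGANTCA, 1 TATAAA and no CACCC. Sprr1b held 1 TGANTCA and 1 CACCC, and Sprr1a 2 TGANTCA and 4 CACCC, with 52.6% identity between them. Pairs of an Sprr1 with an Sprr2 gene came close to that, at 45.5% to 50.6%. On the array side, Sprr2f differed by -2.91 and Sprr2e by -0.16. TGANTCA stood in 31.9% of the 47 member promoters and in 7.81% of 32851 promoters of the same length, TATAAA in 70.2% and 8.32%, CACCC in 72.3% and 57.5%, and CCGGAA in 2.13% and 14.9%. A match is a run of letters and shows no binding.

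Other envelope genes did not pass the test. Loricrin (Lor), a main bulk protein of the epidermal envelope, gave 77.6, 47.4 and 39.5 on the Aire-deficient arrays and 138.5, 74.2 and 93.7 on the wild-type arrays with 1 probe set (difference -0.91 ± 0.36, adjusted p = 0.28 in limma, 0.0696 with the block). Aire-deficient array 1 lay above wild-type array 2, so the groups overlapped. Its second probe set, 162324_at, was dim on all 6 arrays. Filaggrin (Flg), which bundles keratin filaments, gave 51.8, 39.3 and 21.6 on the Aire-deficient arrays against 45.8, 43.2 and 15.5 on the wild-type arrays (0.17 ± 0.48, adjusted p = 0.907), and its second probe set was dim throughout.

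Involucrin (Ivl), a scaffold of the envelope, was dim on all 6 arrays, with 0.2 to 0.567 on the Aire-deficient arrays and 0.833 to 2.35 on the wild-type arrays. Casp14, a protease that acts on filaggrin, gave 5.18, 7.38 and 2.27 against 10.2, 7.53 and 7.83 (-0.93 ± 0.54, adjusted p = 0.48). Ppl, which encodes the envelope and desmosome linker periplakin, gave 31.2, 26.6 and 38.3 on the Aire-deficient arrays and 60.3, 25.4 and 39.5 on the wild-type arrays (-0.31 ± 0.37, adjusted p = 0.763), so the groups overlapped. Tgm3, an epidermal transglutaminase, was not tested, and the widely expressed Tgm2 did not differ beyond its spread (-0.09 ± 0.38, adjusted p = 0.944). In the whole envelope class 16 of 22 probe sets were tested, 13 of them below 0 and 3 above, with a median of -0.28, or -0.24 with the dim ones.

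Mucosal and corneal keratins had differences below 0 on each of 4 tested probe sets, and 1 passed the test. Krt4, the type II keratin of oral and oesophageal epithelium, gave 14.6, 16.9 and 12.5 on the Aire-deficient arrays and 50.5, 34.1 and 39.0 on the wild-type arrays with the probe set 100421_at. Without overlap between genotypes, Krt4 fell by 1.48 ± 0.32 on the log2 scale, or 2.79-fold (adjusted p = 0.0433 in limma, 0.0162 with the block). A second, dimmer probe set gave 3.15, 6.12 and 1.68 against 8.26, 4.73 and 6.62 and did not pass (-0.97 ± 0.62, adjusted p = 0.53).

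Krt12, the type I keratin of the cornea, gave 8.6, 10.6 and 10.3 on the Aire-deficient arrays and 17.2, 23.6 and 19.1 on the wild-type arrays. No arrays overlapped between genotypes, yet the difference of -1.02 ± 0.32 missed the threshold (adjusted p = 0.168 in limma, 0.0884 with the block). Krt13, the usual partner of Krt4, was near the dim limit on its 3 probe sets. The tested one, 100109_s_at, gave 4.55, 6.78 and 2.18 on the Aire-deficient arrays against 9.85, 2.98 and 8.92 on the wild-type arrays (-0.65 ± 0.66, adjusted p = 0.711). Of the untested ones, 160510_f_at had a difference of -1.38 and 162322_r_at 0.45, so the 3 Krt13 probe sets disagree in sign. The class median was -0.99 over the 4 tested probe sets and also over all 6.

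Keratins of the epidermal upper layers also had differences below 0 on all 4 tested probe sets, and none passed in limma. At an unadjusted p under 0.05 in limma, 3 were lower, against 7.81% of all tested probe sets. Krt10, the type I keratin of these layers, gave 172.4, 108.3 and 76.4 on the Aire-deficient arrays and 739.6, 337.8 and 182.3 on the wild-type arrays. The groups did not overlap, though the lowest wild-type array lay near the highest Aire-deficient one, and array 1 was the highest and array 3 the lowest in each genotype. The difference of -1.67 ± 0.48 did not pass in limma (adjusted p = 0.13) and passed with the block (0.00369). The other Krt10 probe set was dim on all 6 arrays.

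Krt1, the partner of Krt10, did not pass with or without the block. Its signals were 14.6, 4.73 and 9.25 on the Aire-deficient arrays and 15.5, 10.6 and 9.03 on the wild-type arrays, which overlapped (-0.41 ± 0.46, adjusted p = 0.753). Krt2, a later type II keratin of epidermis, gave 11.3, 2.78 and 4.83 against 11.02, 33.8 and 13.6 on 101698_f_at (-1.69 ± 0.58, adjusted p = 0.206), and the untested 94703_at had 1.17 to 2.02 on the Aire-deficient arrays and 3.9 to 4.82 on the wild-type arrays, dim in both. Krt77, another epidermal type II keratin, gave 17.2, 7.48 and 7.07 against 29.7, 18.2 and 15.2 (-1.06 ± 0.43, adjusted p = 0.293). The class median was -1.36 over the 4 tested probe sets and -1.14 over all 6.

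The basal keratins could not be compared. Krt5, Krt14 and Krt15, of which Krt5 and Krt14 are commonly used to mark the medullary epithelium, each had 1 probe set, and all 3 lay under the dim limit on all 6 arrays. Krt5 gave 1.13, 1.17 and 1.17 on the Aire-deficient arrays and 2.83, 0.833 and 0.8 on the wild-type arrays. Krt14 gave 3.05, 5.23 and 2.18 against 1.17, 1.88 and 2.58. For these genes the data thus do not bear out the medullary label. With 1 probe set each, a probe set that fails and a scarce transcript cannot be told apart. Of the other listed medullary markers, Aire, Cd40, Ctss, Epcam, Cldn4 and 1 probe set each of Cldn3 and Cd80 were above the limit on all arrays. The other Cldn3 and Cd80 probe sets were dim on some arrays. Krt8 and 1 Krt18 probe set were also above it on all arrays, but these keratins are not particular to the medulla. Likewise above it were Ccl25, Ctsl and Ly75, markers of cortical thymic epithelium. Tnfrsf11a, a listed medullary marker, was dim on all wild-type arrays.

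Simple keratins split in direction. Krt18, the type I keratin of simple epithelium, gave 219.8, 193.2 and 126.3 on the Aire-deficient arrays and 134.1, 57.8 and 79.8 on the wild-type arrays. The lowest Aire-deficient array lay just under the highest wild-type array. The difference was 1.04 ± 0.37, the largest above 0 in its class, and did not pass (adjusted p = 0.225 in limma, 0.0551 with the block). The second Krt18 probe set was dim throughout. Its partner Krt8, encoded next to it on chromosome 15, gave 455.4, 367.4 and 267.6 against 270.2, 239.1 and 320.9, which overlapped (0.37 ± 0.28, adjusted p = 0.601).

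Krt7, a keratin of glandular ducts, lay on the other side of 0. It gave 51.6, 52.2 and 41.3 on the Aire-deficient arrays and 101.7, 70.7 and 65.2 on the wild-type arrays, with no overlap (-0.69 ± 0.31, adjusted p = 0.338). Krt19, found in ducts and in some stratified epithelia, gave 12.6, 6.2 and 8.1 against 62.6, 9.55 and 24.4. The spread over the wild-type arrays was wide (SD 1.36 on the log2 scale), and the groups overlapped. Its difference of -1.51 ± 0.59 passed with the block alone (adjusted p = 0.0366, against 0.275 in limma), and its second probe set lay at -0.98 ± 0.64 (adjusted p = 0.537). With 1 array left out of the unblocked fit the difference of the first ran from -2.19 to -0.83, the last without wild-type array 1.

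Krt20, a keratin of intestine and urothelium, gave 111.5, 154.8 and 198.0 on the Aire-deficient arrays and 141.1, 111.9 and 287.5 on the wild-type arrays (-0.14 ± 0.38, adjusted p = 0.908), overlapping fully. The class held 4 tested probe sets below 0 and 2 above, and its median was -0.41 over the 6 tested and -0.14 over all 7. For contrast with the Sprr genes, the regions around the starts of Krt18, whose difference lay above 0, and Krt10, whose difference lay below, are shown with the same marks.
Krt18 (chr15:102027966-102028265, plus strand): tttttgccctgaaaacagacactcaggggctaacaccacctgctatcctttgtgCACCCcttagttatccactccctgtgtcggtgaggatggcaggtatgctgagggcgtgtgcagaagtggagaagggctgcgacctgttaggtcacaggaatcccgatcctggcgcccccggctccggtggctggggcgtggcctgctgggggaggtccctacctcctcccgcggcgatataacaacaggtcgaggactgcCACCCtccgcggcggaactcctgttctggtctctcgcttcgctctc
Krt10 (chr11:99389315-99389614, minus strand): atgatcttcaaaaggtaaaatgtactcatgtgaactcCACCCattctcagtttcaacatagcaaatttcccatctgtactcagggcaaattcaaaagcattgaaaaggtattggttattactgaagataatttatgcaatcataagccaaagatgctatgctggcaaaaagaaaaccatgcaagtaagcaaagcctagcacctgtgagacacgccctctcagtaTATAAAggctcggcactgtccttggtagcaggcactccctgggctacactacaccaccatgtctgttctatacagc
Krt18 held 2 CACCC and no TATAAA or TGANTCA, and Krt10 held 1 CACCC and 1 TATAAA.

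**Figure D3:**
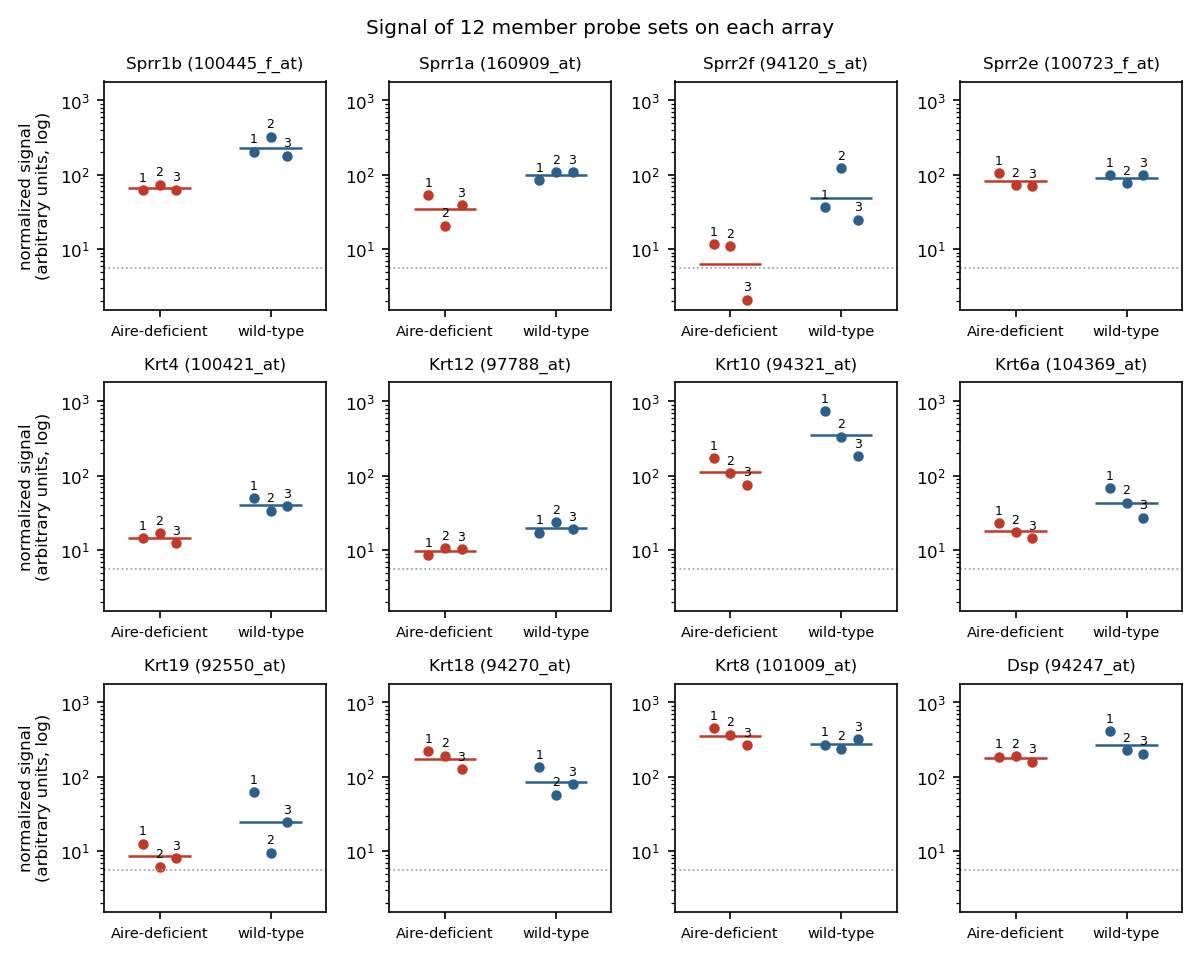
Normalized signal (log axis, arbitrary units) of 12 probe sets on each array, with arrays numbered 1 to 3, bars for the geometric mean of the 3 arrays of a genotype and a dotted line at the dim limit of 5.53. Sprr1b and Krt4 separate the genotypes with little spread, Krt10 and Krt6a separate them with array 1 highest in each genotype, and Krt18 and Krt8 overlap with higher means in the Aire-deficient cells.

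Among the keratins of activated or appendage epithelium, Krt6a had the largest difference. Krt6a, a type II keratin induced in wounds, gave 23.2, 17.6 and 14.5 on the Aire-deficient arrays and 68.9, 43.4 and 27.4 on the wild-type arrays. The groups did not overlap (-1.26 ± 0.39, adjusted p = 0.156 in limma, 0.0268 with the block), and its second probe set did not pass (-0.70 ± 0.85, adjusted p = 0.765). Krt16, its type I partner, gave 35.5, 17.9 and 10.7 against 90.2, 10.5 and 38.6 (-0.81 ± 0.69, adjusted p = 0.651). Wild-type array 2 lay as low as the lowest Aire-deficient array there, and Krt16 was called in 1 of 17 alternatives, the blocked fit without both arrays numbered 2. With 1 array left out its difference ran from -1.64 without wild-type array 2 to -0.09 without wild-type array 1.

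Krt17 and Krt6b did not separate the genotypes. The 3 probe sets of Krt17, a keratin of appendages and stressed epithelium, had differences of -0.36, 0.04 and 0.25 (adjusted p = 0.673, 0.982 and 0.802 in limma), so they disagree in sign, and all overlapped. Krt17 on 92862_f_at gave 181.2, 101.7 and 95.5 on the Aire-deficient arrays and 230.6, 52.6 and 134.6 on the wild-type arrays, with wild-type arrays both highest and lowest. The Krt6b difference was -0.10 ± 0.36 (adjusted p = 0.926). The class median was -0.36 over its 7 probe sets, all of them tested.

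Hair keratins, keratins of the inner root sheath and keratin-associated proteins made up 32 probe sets, of which 15 were tested and 10 were dim on all 6 arrays. None passed in limma. At an unadjusted p under 0.05 in limma, 4 were lower, against 7.81% of all tested probe sets, and 1 higher, against 6.44%. Krt84, a type II hair keratin known from human tongue papillae, gave 13.9, 15.8 and 11.5 on the Aire-deficient arrays and 35.2, 45.6 and 23.2 on the wild-type arrays. The groups did not overlap, and Krt84 passed with the block (-1.29 ± 0.35, adjusted p = 0.0266, against 0.102 in limma). This probe set carries the suffix f, and the second Krt84 probe set was dim throughout.

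Krt33b and Krt81, keratins of the hair shaft, gave lower signals without overlap and did not pass the test with or without the block. Krt33b gave 3.25, 2.15 and 7.93 on the Aire-deficient arrays and 8.73, 25.6 and 13.1 on the wild-type arrays (-1.91 ± 0.58, adjusted p = 0.153 in limma), while its second probe set, not tested, lay at 0.16. Krt81 gave 15.6, 25.9 and 18.3 against 33.2, 39.4 and 41.3 on the 1 of its 4 probe sets that was tested (-0.96 ± 0.32, adjusted p = 0.195). Krtap13 and Krt25 did not overlap either, with differences of -0.88 and -0.74 (adjusted p = 0.337 and 0.453). The other tested probe sets of the class, those of Krt27, Krt32, Krt71, Krt72, Krt86, Krtap14, Krtap3-1 and Krtap5-1, all overlapped, with differences from -0.76 for Krt72 to 0.55 for Krtap5-1. Of the untested ones, Krt34, a type I hair keratin, gave 8.16, 6.38 and 4.25 on the Aire-deficient arrays and 1.27, 1.12 and 4.55 on the wild-type arrays, near or under the dim limit.

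Krt35, a type I hair keratin, gave the only signal among the 92 probe sets that was higher in the Aire-deficient cells without overlap, and its probe sets disagreed. The probe set 98998_r_at gave 36.2, 29.0 and 30.9 on the Aire-deficient arrays and 13.5, 26.5 and 7.73 on the wild-type arrays (1.19 ± 0.43, adjusted p = 0.237 in limma, 0.0873 with the block). The probe set 98997_f_at gave 2.12, 7.22 and 7.63 against 4.35, 11.9 and 7.93 (-0.61 ± 0.62, adjusted p = 0.718). The class had 13 tested probe sets below 0 and 2 above, with a median of -0.66 over the tested and -0.23 over all 32.

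None of the 3 tested desmosomal probe sets passed in limma, with the block or without it. At an unadjusted p under 0.05 in limma, 0 were lower, against 7.81% of all tested probe sets, and 0 higher, against 6.44%. Dsp, the desmoplakin that ties keratins to the desmosome, gave 186.1, 188.5 and 160.3 on the Aire-deficient arrays and 408.3, 230.6 and 204.4 on the wild-type arrays. Every Aire-deficient array was lower than every wild-type array, with wild-type array 1 well above the rest, and the difference of -0.59 ± 0.31 did not pass (adjusted p = 0.434 in limma, 0.217 with the block). A second Dsp probe set was dim throughout. Dsg2, the desmoglein of simple and basal epithelium, gave 388.6, 345.8 and 378.5 against 278.1, 401.0 and 477.1, which overlapped (-0.02 ± 0.27, adjusted p = 0.982).

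Dsc2, a desmocollin of many epithelia, gave 88.8, 63.8 and 49.7 on the Aire-deficient arrays and 147.6, 69.6 and 81.9 on the wild-type arrays (-0.53 ± 0.37, adjusted p = 0.565). Dsc1 and Dsc3 were dim on all 6 arrays and were not tested, nor were the second probe sets of Dsg2 (difference 0.58) and Dsc2 (0.00), dim on most arrays. The class median was -0.53 over 3 tested probe sets and -0.01 over all 8. Of the other desmosomal plaque genes, 9 probe sets of 7 genes were tested and none was called in limma, with a median of -0.18. At an unadjusted p under 0.05 in limma, 0 were lower, against 7.81% of all tested probe sets, and 0 higher, against 6.44%. With the block 1 was called lower, against 3.37% of all. Perp, a membrane protein of desmosomes, passed with the block alone (170.7, 74.05 and 63.8 against 623.4, 97.7 and 166.3, adjusted p = 0.0357).

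Within each genotype, array 1 gave the highest signal for many members. Aire-deficient array 1 was the highest of its genotype for 33 of the 56 tested probe sets (58.9%), against 37.8% of all tested probe sets. Wild-type array 1 was the highest for 27 (48.2%), against 32.9%. Array 1 was highest in both genotypes for 18 members (32.1%), against 19.2% of all. Krt10, Krt6a, Krt16, Krt19, Lor and Dsc2 had array 1 at the top in each genotype on the probe sets described above.

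**Figure D4:**
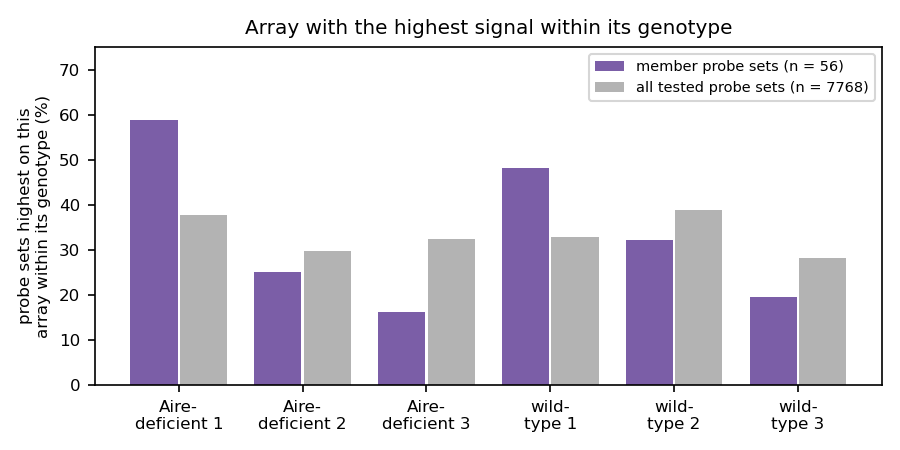
Share of probe sets (%, y axis from 0) whose highest signal within a genotype fell on each array (x axis), for the 56 tested members and for all 7768 tested probe sets. Array 1 holds 58.9% of members in the Aire-deficient cells and 48.2% in wild-type cells, against 37.8% and 32.9% of all probe sets.

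By place in the genome, the lower signals were spread over separate keratin loci. Of the type II keratin locus on chromosome 15, which also holds Krt18, 14 of 16 tested probe sets were below 0 with a median of -0.74. On the type I locus on chromosome 11, 14 of 17 were below 0 with a median of -0.61. On chromosome 3, with Sprr, Lor, Ivl and Flg, 11 of 14 were below 0, but the median was -0.25. Of all tested probe sets 46.9% were below 0, with a median of 0.05. Probe sets within a locus can share targets, so these are not independent counts.

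Other genes of the epithelial barrier, a list of genes known from epidermis, included 4 calls. Of its 20 genes on the array 21 probe sets were tested, with a median of -1.08. In limma 4 were called lower, against 1.38% of all tested probe sets, and none higher, against 0.348%. At an unadjusted p under 0.05 in limma, 12 were lower, against 7.81% of all, and none higher, against 6.44%. Crct1, a gene of the epidermal differentiation complex, gave 39.6, 16.3 and 14.4 on the Aire-deficient arrays and 85.7, 213.0 and 68.9 on the wild-type arrays with 98518_f_at (-2.36 ± 0.50, adjusted p = 0.0431), but its second probe set overlapped (-0.98 ± 0.62, adjusted p = 0.523). Mt4, a metallothionein of stratified squamous epithelium, gave 4.45, 2.07 and 5.44, all dim, on the Aire-deficient arrays and 26.1, 95.0 and 44.5 on the wild-type arrays, at least 8.67-fold lower when the dim signals are set to the dim limit. It passed the filter through the wild-type arrays alone, so its call rests in part on that selection, and 3 calls of the list do not. S100a8 and S100a9, which granulocytes also make, had differences of -2.72 and -2.94. With the block Ly6d, Klk6 and 1 probe set of Alox12e were added, which made 7 lower, against 3.37% of all. Calls of genes outside the members were not rerun with single arrays left out.

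Regulators of stratified epithelium had 14 tested probe sets with a median of -0.42, of which none was called in limma. At an unadjusted p under 0.05 in limma, 2 were lower, against 7.81% of all tested probe sets. With the block 2 were called lower, against 3.37% of all. Klf5, a zinc-finger factor of epithelia, gave 2.7, 9.73 and 12.7 on the Aire-deficient arrays and 23.5, 47.0 and 31.2 on the wild-type arrays (-2.23 ± 0.55, adjusted p = 0.0733 in limma, 0.00634 with the block). Tfap2c, an AP-2 factor, gave 100.8, 127.3 and 131.0 against 181.9, 292.1 and 271.6 (-1.03 ± 0.29, adjusted p = 0.118, 0.0276 with the block). Trp63, the p63 factor of basal epithelium, overlapped (0.27 ± 0.34, adjusted p = 0.774), as did Klf4 (-0.45 ± 0.43, adjusted p = 0.691).

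Hemidesmosome and basement membrane genes had 9 tested probe sets, none called in limma, and a median of -0.47. At an unadjusted p under 0.05 in limma, 2 were lower, against 7.81% of all tested probe sets, and 1 higher, against 6.44%. With the block 1 was called lower, against 3.37% of all. It was that of Lamb3, a laminin chain (-1.86 ± 0.47, adjusted p = 0.024). Other intermediate filament genes and partners had 6 tested probe sets, none called in limma with or without the block, and a median of -0.32. At an unadjusted p under 0.05 in limma, 0 were lower and 0 higher, against 7.81% and 6.44% of all.

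Markers of other cell types were measured beside these genes. The summed signal of the 14 probe sets of 11 granulocyte genes ran from 82.3 to 97.6 on the Aire-deficient arrays and from 253.4 to 310.6 on the wild-type arrays, although the sort for CD45-negative cells should remove such cells. Of these, 9 probe sets of 7 genes were tested, with 5 not called. In limma 4 were called lower (Ltf, Ly6g, Ngp and Camp), against 1.38% of all tested probe sets. At an unadjusted p under 0.05 in limma, 5 were lower, against 7.81% of all, and 0 higher, against 6.44%. Ltf, Ly6g and Ngp were dim on all 3 Aire-deficient arrays and passed the filter through the wild-type arrays alone, and of the other 6 tested probe sets Camp was called. The 5 tested probe sets that were not called all overlapped. Mpo lay at -1.80 (adjusted p = 0.223 in limma) and Mmp9 at -1.10 and -0.53 (adjusted p = 0.351 and 0.766 in limma). Lcn2 lay at -0.24 and -0.45 (adjusted p = 0.86 and 0.741 in limma). Prtn3, not tested, lay at 0.83 without overlap, and 4 of the 14 were dim on all 6 arrays. Which cells made these transcripts cannot be told from bulk samples. The part of granulocytes in the lower S100a8, S100a9 and envelope signals was not tested.

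Summed signals overlapped between genotypes for T lineage, B lineage, fibroblast, endothelial and erythroid markers, and for markers of cortical epithelium. Of the 6 tested cortical probe sets 1 was called higher in limma, against 0.348% of all, and 5 were not called. It was that of Ccl25 (2.31 ± 0.46, adjusted p = 0.0345 in limma). Ccl25 gave 511.2, 412.6 and 221.6 on the Aire-deficient arrays and 119.2, 35.85 and 88.87 on the wild-type arrays, without overlap. With the block, 1 probe set each of Blk, a B lineage kinase, and Alas2, an erythroid enzyme, was called higher (adjusted p = 0.0249 and 0.0478), against 1.93% of all. Ms4a1, which encodes CD20, was called lower on 1 probe set with the block (0.0339), against 3.37% of all. That probe set was dim on all Aire-deficient arrays. Summed signals of macrophage and dendritic markers ran from 223.9 to 250.3 in the Aire-deficient and from 270.5 to 406.3 in the wild-type cells. None of these was called in limma. At an unadjusted p under 0.05 in limma, 2 were lower, against 7.81% of all tested probe sets, and 1 higher, against 6.44%. With the block Cd14 was lower (-1.68 ± 0.39, adjusted p = 0.0055), against 3.37% of all, and Cd68 higher (1.65 ± 0.39, adjusted p = 0.0239), against 1.93%. Summed signals of medullary markers ran from 2077 to 2392 in the Aire-deficient and from 1425 to 1697 in the wild-type cells. Ctss alone gave 739.6 to 1079 against 358.4 to 682.1, and the sum includes the members Krt8 and Krt18, which are not particular to the medulla. The sum thus rests on a few bright probe sets and does not measure the amount of medullary epithelium. Epcam lay on the other side, and Cldn3 and Cldn4 overlapped. None of the list was called in limma. At an unadjusted p under 0.05 in limma, 1 was lower, against 7.81% of all tested probe sets, and 4 higher, against 6.44%. With the block Epcam was called lower, against 3.37% of all, and Aire higher, against 1.93%. The second probe set of Krt18, with those of Krt5 and Krt14, was dim throughout.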

How the data were processed

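The deposited values were linear signal intensities, 1 per probe set and array, for 6 arrays; the software, background and scaling by which the authors made them are not stated. Per the labels, total RNA of sorted cells from pooled thymi was amplified in 2 rounds before hybridisation, which can favour 3' ends. Precision is limited by 3 arrays per genotype. The labels do not say more of how separate the pools were, so p-values measure the spread between these arrays.

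From these values 66 control probe sets were removed, and the other 12422 were quantile-normalized, floored at the pooled 20th percentile (1.8) and put on the log2 scale. The 7768 probe sets with 3 or more arrays above 5.53, the 40th percentile, were tested in limma 3.58.1 (R 4.3.3; lmFit, eBayes with trend) with Benjamini-Hochberg adjustment and a threshold of 0.05. Genes came from the platform annotation, under which 10833 probe sets had 1 gene, 396 several and 1193 none, and all 92 members matched GRCm38.p6 by gene ID. Probe sets of a gene were kept apart. The members and lists were chosen with earlier results of these data known. Named with array values were members called in either direction, up to 4 per class with the smallest unadjusted p, the brightest per class and a preset list of class markers; other members are given by ranges. From the other lists, genes called in either fit were named. Added after their values were seen were Trp63, Klf4, Lcn2, Prtn3, Mpo, Mmp9, Ctsl, Ly75, Tnfrsf11a, Cd40, Ctss, Cldn3, Cldn4 and the gate antigens. Calls beyond 4 a list by smallest p (Ly6d, Klk6 and Alox12e) were added likewise.

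Deviations of same-numbered arrays from their group means correlated at 0.37, 0.2 and 0.19, against -0.25 to 0.068 for other pairs. The labels give a shared number no meaning, so the pairing is read from these same data. The main fit was unblocked, and a fit with the replicate block stands beside it. No array was a copy of another. Other scalings, floors, filters, array weights and leaving out each array were tried. On simulated data with 200 of 7768 probe sets changed, 2% of 2-fold, 50% of 4-fold and 82% of 8-fold changes were recovered, with 6 false among 115 calls.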

Additional observations from a re-analysis of the deposited data

How the results depend on the processing

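Among the members, Sprr1b alone was called lower (1 call) with the values as deposited, with median scaling and without the variance trend, and none (0) without a filter on dim signals. Called lower without one array, the members numbered 0 to 1 and all probe sets 25 to 79, and called higher, all probe sets numbered 2 to 16. The members' median without one array ran from -0.62 to -0.44. It was -0.44 with the values as deposited and with median scaling, -0.33 with the floor at the 40th percentile or with probe sets above the dim limit on all arrays, and -0.25 with no filter, which adds dim probe sets (hair class -0.23). Both scalings moved the median of all tested probe sets to 0.17, against 0.05, so the members lay -0.61 from it against -0.65. All probe sets called higher numbered 71 as deposited, 55 with median scaling and 6 without the filter, and those called lower 10 without the filter and 40 above the dim limit on all arrays. Array weights gave 166 lower and 72 higher, with 3 members lower (Krt4, Sprr1a and Sprr1b) and 1 higher (Krt35). The replicate block gave 262 and 150, with 8 members lower and 0 higher. The replicate block without both arrays numbered 2 gave medians of -0.51 for all members and -1.6 for the mucosal class.

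Single differences that changed sign had missed the threshold. Dsg2 gave 0.31 with both scalings, -0.24 to 0.15 with 1 array left out and 0.07 with the block without arrays numbered 2. Krt17 on 92862_f_at gave -0.31 with weights, -0.54 to 0.52 with 1 array left out and -0.42 with the block without arrays numbered 2. Tgm2 gave 0.18 with weights and -0.29 to 0.06 with 1 array left out, Flg -0.33 to 0.53 and Krt1 -0.79 to 0.03. The cause was not tested. Sprr1b was called in 12 of 17 alternatives (adjusted p in limma 0.00262 to 0.0932) and Krt4 in 7 of 17 (0.0162 to 0.174). Signals near the dim limit, probes shared within families and 3 pools per genotype limit these results.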
